A study of Homo sapiens with 9 samples.

Results

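Chromosome 6 carried 12525 of the 111239 open-chromatin regions found by ATAC-seq in HepG2, a human hepatocellular cancer cell line, after siRNA treatment against the chromatin remodeller INO80. A region is an interval covered by a peak of at least 1 of 3 deposited peak lists, with overlapping or touching peaks of the lists merged. The chromosome was chosen by its peak density, which was high, and by the share of peaks that the lists had in common, which was low, so both are given here as a description with no test. It was divided at 60 Mb on the hg19 (GRCh37) build. The first 60 Mb, which hold the short arm with the histone gene cluster and the major histocompatibility complex (MHC), contained 4351 regions, and the rest, which holds the long arm, contained 8174. The gap in the sequence at the centromere lies across 60 Mb. The 19 autosomes other than 2, 6 and 14 served as reference, with 69881 regions.

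Cells had received 50 nM siRNA by RNAiMAX transfection for 72 h. The groups were a non-targeting control siRNA (NTG) and 2 siRNAs against INO80 (siINO80#1 and siINO80#2). All of the groups were HepG2 cells given the transfection reagent and an siRNA, so untransfected cells are not part of the comparison. Each group had 3 replicates, A to C, for 9 samples, and each group had 1 peak list for all of its replicates. A difference between lists therefore has no replicate check. Intervals of a share (Wilson) or of a difference of shares (Newcombe) are 95% intervals that cover counting error only. Those of a ratio of peak numbers are 95% intervals that take the counts as independent. Those of a background ratio set the lower 95% limit of 1 median over the upper limit of the other, and the reverse. They take neighbouring peaks as independent. In bulk cells, a site open in fewer cells and a site less open in each cell cannot be told apart.

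INO80 is the ATPase of a multisubunit complex that moves and edits nucleosomes at promoters, enhancers and replication forks. In ATAC-seq a transposase inserts sequencing adapters into DNA that is not wrapped in nucleosomes, so a peak marks a promoter, enhancer or other accessible element. Promoters of widely expressed genes are typically open in every cell type and rich in GC boxes, the binding motif of SP/KLF factors. Distal elements differ between cell types and are bound by factors such as FOXA, which opens liver enhancers, and AP-1, a dimer of FOS and JUN proteins that responds to growth and stress signals.

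The lists held 69730 (NTG), 69333 (siINO80#1) and 53113 (siINO80#2) peaks over all chromosomes. Read depth was not given with the lists. The genome-wide background that the peak caller had used, recovered from the fold enrichment and p of each peak, was 3.82 reads in NTG, 5.16 in siINO80#1 and 5.34 in siINO80#2. A peak lay within 1 kb of a start site of all 11 liver marker genes in NTG and siINO80#1 and of 9 in siINO80#2, where ALB (albumin) and AFP (alpha-fetoprotein) had none. Of 6 marker genes of other cell types, 4 had no such peak in any list, and PTPRC had a weak peak in siINO80#1 (fold enrichment 2.44). For scale, 62.4% of all 19222 autosomal protein-coding genes had such a peak in NTG, and 6409 had none in any list. Accessibility does not measure the siRNA target, so the knockdown of INO80 was not checked here.

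The sequences below show what the regions of chromosome 6 are made of, with leading regions from both sides of 60 Mb. Regions were ranked by the lowest percentile of fold enrichment, the ratio of reads at the summit to the local background, over the lists that held them. Each sequence is the plus strand of hg19, 200 bp around the strongest summit, with matches to any of 4 motifs in capitals. The leading region of all 3 lists in the first 60 Mb lay at chr6:58287603-58287802, on the start site of the long non-coding RNA gene LINC00680. Its central 50 bp occur 2 times in the genome, so its reads are uncertain.
LINC00680: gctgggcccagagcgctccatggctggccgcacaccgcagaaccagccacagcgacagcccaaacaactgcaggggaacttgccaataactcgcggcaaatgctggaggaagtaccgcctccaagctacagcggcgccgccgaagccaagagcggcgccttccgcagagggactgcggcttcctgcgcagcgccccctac
The leading regions of NTG alone lay in an intron of KIF13A, a kinesin motor gene, at chr6:17815675-17815874, and in an intron of ENSG00000281613, 9952 bp from the start of RFPL4B, at chr6:112658480-112658679. Neither window held a motif.
KIF13A: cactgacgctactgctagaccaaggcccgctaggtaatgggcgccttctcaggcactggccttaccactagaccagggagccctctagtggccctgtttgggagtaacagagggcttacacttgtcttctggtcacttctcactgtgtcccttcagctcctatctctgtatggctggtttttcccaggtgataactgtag
RFPL4B: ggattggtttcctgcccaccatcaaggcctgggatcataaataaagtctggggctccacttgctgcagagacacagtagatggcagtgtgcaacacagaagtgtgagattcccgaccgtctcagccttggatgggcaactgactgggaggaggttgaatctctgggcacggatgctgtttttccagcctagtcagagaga
The leading regions of both siINO80 lists without an NTG peak lay in an intron of LNC-LBCS, at chr6:19731594-19731793, and in an intron of EYS, at chr6:64754907-64755106. Neither window held a motif.
LNC-LBCS: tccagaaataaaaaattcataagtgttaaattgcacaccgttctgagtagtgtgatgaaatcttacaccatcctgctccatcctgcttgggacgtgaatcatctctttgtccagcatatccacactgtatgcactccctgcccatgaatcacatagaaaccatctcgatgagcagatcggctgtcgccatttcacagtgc
EYS: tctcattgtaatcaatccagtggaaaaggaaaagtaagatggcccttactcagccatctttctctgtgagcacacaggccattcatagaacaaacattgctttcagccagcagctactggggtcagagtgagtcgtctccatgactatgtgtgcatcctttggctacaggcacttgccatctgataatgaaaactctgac
The last pair, chosen after the values were seen, is the leading region of the same kind that held the AP-1 letters on each side of 60 Mb. The region at chr6:8556987-8557186 lay in an intron of HULC, a non-coding RNA gene named for its high level in liver cancer, and that at chr6:82575521-82575720 in an intron of LINC02542, where the FOXA letters stand before the AP-1 letters.
HULC: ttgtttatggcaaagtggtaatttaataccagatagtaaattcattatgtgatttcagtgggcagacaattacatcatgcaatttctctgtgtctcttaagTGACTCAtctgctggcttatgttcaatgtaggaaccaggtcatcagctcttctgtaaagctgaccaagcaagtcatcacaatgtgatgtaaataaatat
LINC02542: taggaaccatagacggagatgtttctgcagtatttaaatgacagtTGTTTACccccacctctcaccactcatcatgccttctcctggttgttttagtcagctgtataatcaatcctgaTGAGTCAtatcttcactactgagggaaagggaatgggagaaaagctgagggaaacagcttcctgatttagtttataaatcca

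Peaks were dense on both sides of 60 Mb. NTG had 43.4 peaks per Mb of assembled sequence in the first 60 Mb and 42.7 in the rest, against 21.3 on the reference autosomes. The siINO80#1 list had 44.7 and 42.7, against 20.8 on the reference, and the siINO80#2 list 35.2 and 32.0, against 15.9. Chromosome 6 ranked 2 of 22 autosomes in peaks per Mb in each list, and the highest reference autosome in NTG was chromosome 20 with 36.6. Of the autosomes left out of the reference, chromosome 2 had 48.7 NTG peaks per Mb and chromosome 14 had 37.8. Chromosome 6 was not rich in genes, with 6.26 protein-coding genes per Mb and rank 13 of 22. Around the boundary itself, NTG had 53.3 peaks per Mb at 55-60 Mb and 62.2 at 60-65 Mb.

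Density changed along the chromosome, but not at 60 Mb. In windows of 5 Mb with at least 4 Mb of sequence, 29 of 32 windows of chromosome 6 lay above the median of the 425 reference windows in NTG (20.8 peaks per Mb), and 22 lay above their 90th percentile. Stretches read off this profile after the data were seen were dense from 0 to 70 Mb (43.8 NTG peaks per Mb), close to the reference from 70 to 110 Mb (21.4) and dense again from 110 Mb to the end (56.0). The densest window in NTG and siINO80#1 was 125-130 Mb, with 71.0 NTG, 76.4 siINO80#1 and 52.0 siINO80#2 peaks per Mb. The sparsest was 100-105 Mb with 14.6, 14 and 10.0. In siINO80#2 the stretches had 35.7, 15.5 and 41.8 peaks per Mb, in the same order as in NTG.

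The local background moved with density in some stretches and not in others. It is given as the median over peaks, in multiples of the genome background of the same list. In NTG it was 1.40 in the first 60 Mb, 1.19 in the rest and 1.2 on the reference autosomes. The ratio between the first 60 Mb and the rest was 1.18 (1.15 to 1.22) in NTG, 1.24 (1.2 to 1.27) in siINO80#1 and 1.21 (1.17 to 1.24) in siINO80#2. The sparse stretch at 70-110 Mb had a median of 1.00 in NTG, at the genome background, against 1.34 before it and 1.24 after it. Windows of highest background were not those of highest density: 40-45 Mb had a background of 2.19 and 33.2 NTG peaks per Mb. The part of local read depth, DNA copy number included, in the density was not tested.

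**Figure D1:**
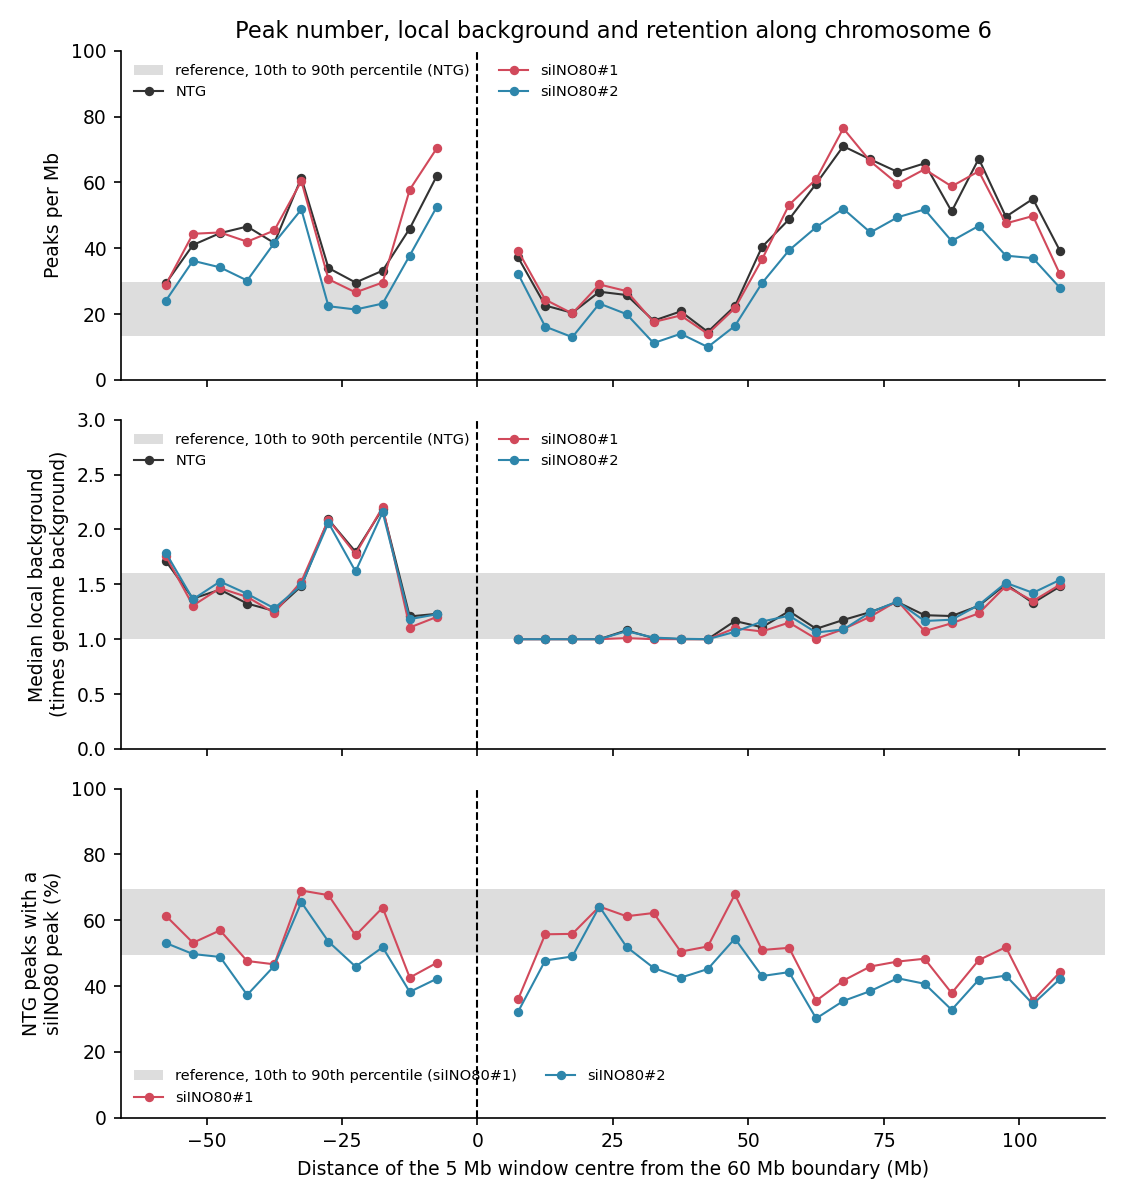
Peaks per Mb, median local background of the peaks and share of NTG peaks with a siINO80 peak in 5 Mb windows of chromosome 6, against the distance of the window centre from the 60 Mb boundary (dashed line); points are windows, colours are lists, and grey bands span the 10th to 90th percentile of 425 reference windows. In NTG, 22 of 32 windows lie above the band in density, while the windows between about 10 and 50 Mb after the boundary lie within it and reach the lowest value of 14.6.

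The surplus over the reference was largest among weak peaks. The median fold enrichment in NTG was 3.22 (quartiles 2.70 and 4.37) in the first 60 Mb and 3.16 (2.72 and 4.36) in the rest, against 3.53 (2.91 and 5.16) on the reference. The weakest 30% of the NTG list gave 16.5 and 15.4 peaks per Mb of chromosome 6, against 5.93 on the reference. The strongest 30% gave 10.3 on each side of 60 Mb, against 7.16. Peaks were also narrower, with median widths of 304.5 bp in the first 60 Mb and 281 bp in the rest, against 326 bp. Weak and narrow peaks were not particular to chromosome 6. On chromosomes 2 and 14, which the reference leaves out, the NTG medians were 3.11 and 2.91 in fold enrichment and 278 and 297 bp in width. Chromosome 20 of the reference had 2.96 and 300 bp.

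Strong promoter peaks were present as well. In the first 60 Mb the peak on LINC00680 reached a fold enrichment of 19.3 in NTG, 19.2 in siINO80#1 and 16.9 in siINO80#2. Next to it ranked the promoter of MCM3, a subunit of the replicative helicase, with 13.4, 12.5 and 11.5. In the rest of the chromosome the promoter of HSF2, a heat shock transcription factor, had 15.7, 15.4 and 13.9.

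Chromosome 6 peaks lay away from promoters more often than reference peaks did. A summit within 1 kb of a start site was found for 22.4% (20.8 to 24.0) of NTG peaks in the first 60 Mb and 14% (13.1 to 15.1) in the rest, against 29.5% (29.1 to 29.9) on the reference. The difference from the reference was -7.11 percentage points (-8.74 to -5.40) in the first 60 Mb and -15.4 points (-16.5 to -14.3) in the rest. Between the sides of 60 Mb it was 8.33 points (6.45 to 10.3) in NTG, 7.58 (5.74 to 9.46) in siINO80#1 and 8.09 (5.88 to 10.3) in siINO80#2. Introns held 48.3% of NTG peaks in the rest of the chromosome, 8.26 points (6.76 to 9.77) above the reference, and 40.8% in the first 60 Mb, where the difference of 0.799 points (-1.15 to 2.77) included 0. Intergenic peaks exceeded the reference on both sides, by 5.79 (3.94 to 7.69) and 6.85 points (5.44 to 8.28).

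The difference between the sides was smaller when 25-34 Mb, the interval with the histone and MHC clusters, was left out. Neither cluster was left out on its own. The interval 25-34 Mb had 31.4 protein-coding genes per Mb, and 47.6% of its 450 NTG peaks lay at a start site. Without it, the difference in the share at start sites fell to 2.92 points (1.06 to 4.85) in NTG, 2.69 (0.871 to 4.57) in siINO80#1 and 2.47 (0.283 to 4.74) in siINO80#2. Per Mb, start-site peaks were not scarce on chromosome 6: NTG had 9.70 in the first 60 Mb and 5.99 in the rest, against 6.28 on the reference. Distal peaks were 33.7 and 36.7 per Mb, against 15.0. Chromosome 6 ranked 21 of 22 autosomes in the share of NTG peaks at start sites and 2 of 22 in distal peaks per Mb.

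Fewer NTG peaks of chromosome 6 had a counterpart in the siINO80 lists than on the reference autosomes, and the chromosome ranked 21 of 22 autosomes in this share for each siINO80 list. Over all chromosomes, 43.5% of NTG peaks had no overlapping siINO80#1 peak and 52.0% had no siINO80#2 peak. On the reference, 60.5% of NTG peaks were matched in siINO80#1, against 54.4% (52.5 to 56.4) in the first 60 Mb of chromosome 6 and 46.9% (45.4 to 48.3) in the rest. For siINO80#2 the shares were 50.9%, 47.6% (45.7 to 49.6) and 40.8% (39.4 to 42.2). These are the values by which the chromosome was chosen. For siINO80#1 and siINO80#2, chromosome 2 had 44.8% and 38.8%, chromosome 14 had 52.6% and 46.2%, and chromosome 20 of the reference had 53.7% and 43.8%. Matching was low in the other direction too: 52.4% of siINO80#1 peaks in the first 60 Mb and 46.6% in the rest had an NTG peak, against 61.5% on the reference.

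Matching differed between start sites and distal peaks. At start sites, 80.3% of the 569 NTG peaks of the first 60 Mb and 77.4% of the 651 of the rest were matched in siINO80#1, against 80.3% on the reference. Among distal peaks the shares were 47.0%, 41.9% and 52.2%. NTG start-site peaks matched in siINO80#2 differed from the reference by 2.24 points (-1.66 to 5.86) and 1.15 points (-2.53 to 4.60). In the other direction, matching of siINO80 start-site peaks to NTG was below the reference, except for siINO80#1 in the first 60 Mb, where the interval included 0. The differences for siINO80#1 peaks with an NTG peak were -0.103 points (-3.56 to 2.94) in the first 60 Mb and -5.37 (-8.84 to -2.19) in the rest. For siINO80#2 peaks they were -3.75 and -4.40 with an NTG peak, and -5.90 and -5.83 with a siINO80#1 peak. For siINO80#1 peaks with a siINO80#2 peak they were 0.0644 (-3.82 to 3.65) and -2.05 (-5.74 to 1.42), and both intervals included 0. Over 10 equal bins of the NTG list by fold enrichment, matching in siINO80#1 was 28.9% in the weakest bin and 99.4% in the strongest in the first 60 Mb. In the rest it was 21.9% in the weakest bin and 99.1% in the strongest.

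Matching was also set against the reference at equal strength, as a description. Given the reference rate in each bin, 53.8% of NTG peaks in the first 60 Mb would have been matched in siINO80#1 and 43.9% in siINO80#2, and 54.4% and 47.6% were. In the rest, 53.3% and 43.7% would have been matched, and 46.9% and 40.8% were. For siINO80#1, matching in the first 60 Mb was below the reference in 3 of the 10 bins, and that in the rest in 8. The first 60 Mb exceeded the rest by 7.58 points (5.16 to 9.98) for siINO80#1 and 6.88 (4.48 to 9.28) for siINO80#2. Among peaks with a −log10 q of at least 5 these differences were 1.2 (-2.14 to 4.46) and -0.556 (-4.25 to 3.10). Where the sparse stretch at 70-110 Mb was set apart, 59.3% (55.9 to 62.5) of its NTG peaks were matched in siINO80#1, against 52.2% before and 44.8% after it.

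**Figure D2:**
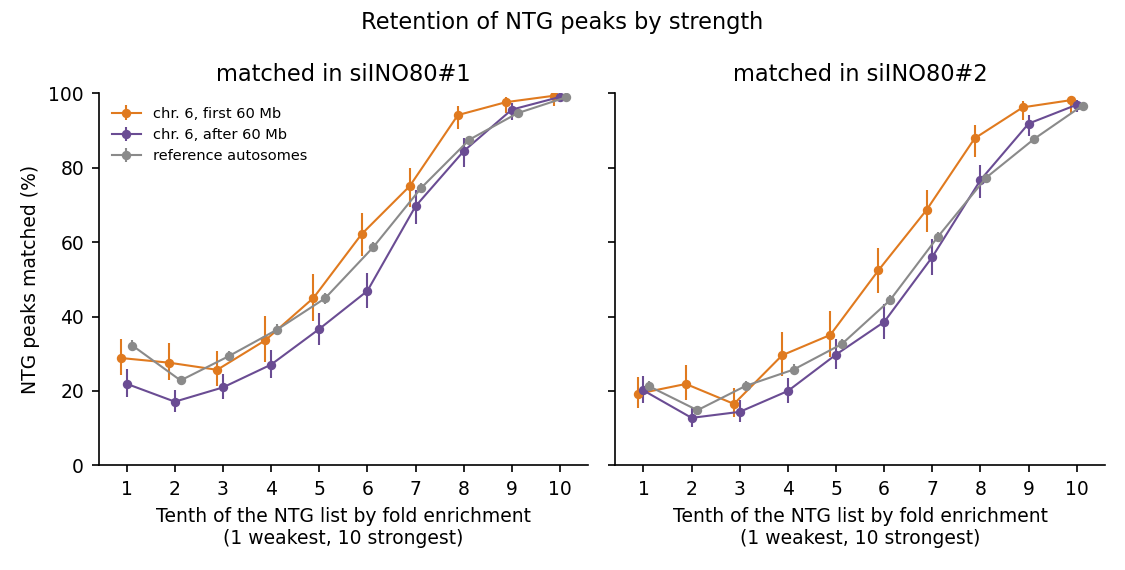
Share of NTG peaks overlapped by a siINO80#1 peak (left) or a siINO80#2 peak (right) in each of 10 equal bins of the NTG list by fold enrichment, for both sides of 60 Mb and the reference autosomes; bars are 95% Wilson intervals. In siINO80#1 the first 60 Mb lie above the rest of the chromosome in all 10 bins, and the interval of the difference lies above 0 in 5 of them. The difference is largest in bin 6 (62.2% against 46.9%) and is 0.335 points in bin 10.

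The siINO80#2 list was shorter on chromosome 6, and the siINO80#1 list was not. The first 60 Mb held 2544 NTG, 2625 siINO80#1 and 2064 siINO80#2 peaks. The rest held 4639, 4641 and 3482. The ratio to NTG for siINO80#1 was 1.03 (0.977 to 1.09) and 1.00 (0.961 to 1.04), against 0.978 (0.966 to 0.991) on the reference. For siINO80#2 it was 0.811 (0.766 to 0.860) in the first 60 Mb and 0.751 (0.718 to 0.784) in the rest, against 0.747 (0.736 to 0.757) on the reference. Over all chromosomes the ratios were 0.994 for siINO80#1 and 0.762 for siINO80#2. The siINO80 lists thus differed from each other in length, and with 1 list per group this cannot be credited to the siRNAs. Both had a higher genome background than NTG, and its part in the list lengths was not tested.

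Regions held by 1 list were in the majority on chromosome 6. They made up 61.4% (59.9 to 62.8) of regions in the first 60 Mb and 66.8% (65.8 to 67.8) in the rest, against 52.8% (52.5 to 53.2) on the reference. Regions of all 3 lists were 24.2% and 19.8%, against 30.8%. Chromosomes 2 and 14, left out of the reference, had 17.8% and 21.7%. NTG alone held 23.4% of regions in the first 60 Mb and 27.1% in the rest, against 24.4% over all chromosomes. Both siINO80 lists without NTG held 206 regions (4.73%, 4.14 to 5.41) in the first 60 Mb and 369 (4.51%, 4.09 to 4.99) in the rest, against 5.19% over all chromosomes. Regions of all 3 lists were wide, with medians of 810.5 and 789 bp, and those of NTG alone were narrow, with 216 and 212 bp. In shared regions the rank order of fold enrichment was similar on all parts of the genome: Spearman's rho across regions between NTG and siINO80#1 was 0.729, 0.763 and 0.751 in the first 60 Mb, the rest and the reference. Regions are not independent replicates.

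**Figure D3:**
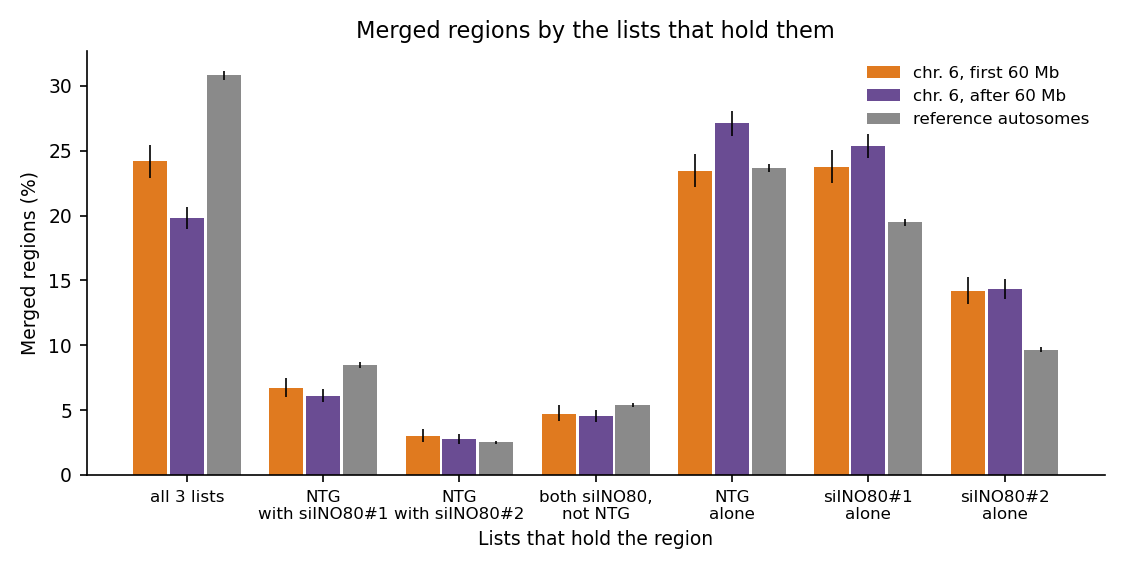
Share of merged regions by the lists that hold them, for both sides of 60 Mb and the reference autosomes; bars start at 0 and error bars are 95% Wilson intervals. Regions of all 3 lists fall from 30.8% on the reference to 24.2% and 19.8% on chromosome 6, while those of siINO80#1 alone rise from 19.5% to 23.7% and 25.4%.

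Motif letters were not among the values by which the chromosome was chosen, but the classes they are given by rest on sharing, which was. Both strands of the 200 bp around each region's strongest summit were searched for the letters TGACTCA (AP-1), TGACGTCA (the cyclic AMP response element, CRE), TGTTTAC (FOXA) and GGGCGG (GC box), none of which contains another. Over all regions they occurred in 11.9%, 0.335%, 4.95% and 10.5%. A match is a description and not a bound site.

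AP-1 letters were present in 25.7% (20.2 to 32.1) of the regions that both siINO80 lists held and NTG did not in the first 60 Mb and 24.9% (20.8 to 29.6) in the rest, and in 4.61% (3.48 to 6.07) and 4.51% (3.72 to 5.46) of the regions of NTG alone. The former class requires a peak in 2 lists (median width 421.5 and 408 bp) and NTG alone in 1 (216 and 212 bp), so they differ in more than treatment. Regions of NTG with siINO80#1 had the letters in 7.22% and 7.01%, and those of NTG with siINO80#2 in 9.16% and 8.44%. The difference between both siINO80 lists and NTG alone was 21.1 points (15.4 to 27.6) in the first 60 Mb and 20.4 points (16.2 to 25.1) in the rest. With peaks below a −log10 q of 5 left out it was 33.2 and 28.1 points, and with peaks whose pileup was under 5 genome backgrounds left out 34.7 and 31.2. In the central 100 bp it was 13.7 and 14 points. On the reference, regions of both siINO80 lists without NTG had the letters in 35.6% (34.1 to 37.2). The differences of chromosome 6 from it were -9.90 points (-15.6 to -3.35) and -10.7 points (-15.1 to -5.8). Away from start sites the differences were -12.8 points (-18.7 to -5.99) and -12.4 points (-17.0 to -7.29). These differences were not particular to chromosome 6. On the chromosomes left out of the reference (2, 14, X and Y), 25.2% (23 to 27.5) of such regions held the letters, and chromosome 6 differed from them by 0.554 points (-5.40 to 7.29) and -0.242 points (-4.98 to 4.90). In regions of all 3 lists the AP-1 share was 16% and 17.5%, and the differences from the reference (16.8%) had 0 in their intervals. Away from start sites, it was 22.4% (19.4 to 25.7) and 20.9% (18.7 to 23.3) in regions of all 3 lists, and 24.3% (18.7 to 31.0) and 24.8% (20.5 to 29.6) in those of both siINO80 lists without NTG. Regions of siINO80#1 alone had 7.26% and 6.75% with AP-1 letters, against 13.1% on the reference and 7.34% on the chromosomes left out of it. Those of siINO80#2 alone had 7.93% and 7.43%, against 13.2% and 7.52%.

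GC box, FOXA and CRE letters were counted in the same way. GC boxes were found in 20.7% of the regions of all 3 lists in the first 60 Mb and 15.8% in the rest, against 26.3% on the reference and 20.2% on the chromosomes left out of it. The differences from the reference of -5.53 points (-7.94 to -2.91) and -10.4 points (-12.2 to -8.49) were -1.66 (-3.25 to 0.418) and -1.75 points (-3.02 to -0.219) in distal regions. FOXA letters were present in 4.47% (3.38 to 5.89) of the shared regions of the first 60 Mb and 7.97% (6.75 to 9.39) of those of the rest, against 6.19% (5.87 to 6.52). Between both siINO80 lists and NTG alone, FOXA shares differed by 3.95 points (0.848 to 8.43) and 3.21 (1.02 to 6.22), against 3.77 (2.90 to 4.70) on the reference. CRE letters were rare, in 20 of the 4351 regions of the first 60 Mb and 10 of the 8174 of the rest. Median GC content of the 200 bp was lower on chromosome 6 than on the reference in every class, for example 50.5% and 48.0% against 53.0% in regions of all 3 lists. Its part in the motif shares was not tested.

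**Figure D4:**
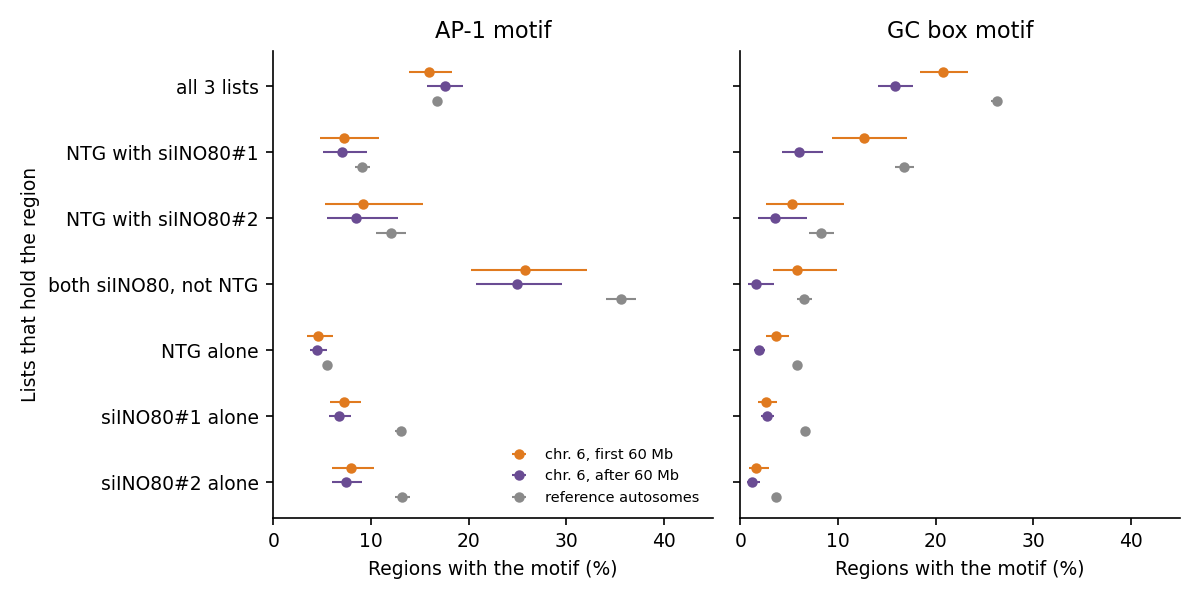
Share of regions whose 200 bp around the strongest summit hold the AP-1 letters (left) or the GC box letters (right), by the lists that hold the region, for both sides of 60 Mb and the reference autosomes; bars are 95% Wilson intervals. AP-1 letters are in 25.7% and 24.9% of the chromosome 6 regions of both siINO80 lists without NTG, against 35.6% on the reference, and GC boxes in 20.7% and 15.8% of those of all 3 lists, against 26.3%.

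Most genes with a start-site peak had it in all 3 lists. Of all 617 protein-coding genes of the first 60 Mb, 348 had a peak within 1 kb of a start site in all 3 lists, 170 in none and 99 (16%) in some lists and not in others, against 14.1% of all autosomal protein-coding genes. In the rest of the chromosome 311 of 431 had a peak in all 3 lists, 74 in none and 46 (10.7%) in some. Among genes with any start-site peak, all 3 lists had it for 87.1% (83.2 to 90.2) in the rest, 77.9% (73.8 to 81.5) in the first 60 Mb and 77.7% (76.9 to 78.5) on the reference. Fold enrichment ran higher in NTG in general. Its median over peaks was 3.38 in NTG, 3.15 in siINO80#1 and 3.16 in siINO80#2 over all chromosomes. In the first 60 Mb it was 3.22, 2.92 and 2.97. Genes named below as strongest were picked by their NTG value, which favours lower values in the siINO80 lists. Whether the fold enrichment of a gene differed between lists was not tested.

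Replication-dependent histone genes supply the nucleosome proteins of S phase, often from promoters shared by a pair of genes, so that a peak can count for both. Of 52 such genes of chromosome 6, 42 had a start-site peak in NTG, 40 in siINO80#1, 42 in siINO80#2 and 39 in all 3 lists. That is 80.8% in NTG and 75% in all 3 lists, against 67.9% and 56.4% of all protein-coding genes of the first 60 Mb. The strongest in NTG was the peak shared by H3C12, H2AC17 and H2BC17, with a fold enrichment of 7.68 in NTG, 3.97 in siINO80#1 and 5.34 in siINO80#2. Next was that of H3C2 and H2AC4 with 7.45, 5.40 and 4.81. Between lists 5 genes (9.62%) differed, against 16% of all protein-coding genes of the first 60 Mb. H3C8 had a peak in NTG alone (4.84), H2BC10 in NTG (4.84) and siINO80#2 (3.42), and H1-3 in NTG (2.95) and siINO80#1 (2.67). The testis histone genes H2AC1 and H2BC1 shared a weak peak in siINO80#2 (2.5).

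Most listed class I genes of the MHC had a start-site peak, and most class II genes had none. Class I genes present peptides on most nucleated cells, and TAP and PSMB genes prepare those peptides. Of 13 class I and processing genes, 11 had a start-site peak in NTG, 9 in siINO80#1 and 10 in siINO80#2. That is 84.6% in NTG, against 67.9% of all protein-coding genes of the first 60 Mb. HLA-G and TAPBP had no peak in any list. HLA-C had the strongest in NTG, with 6.30 in NTG and 3.15 in each siINO80 list, followed by the peptide transporter gene TAP2 with 6.01, 4.49 and 3.74. HLA-F had a peak in NTG (4.08) and siINO80#2 (2.76), and the stress ligand gene MICB in NTG alone (3.0). Class I genes resemble each other in sequence, so short reads may be misassigned among them. Class II genes present peptides on professional antigen-presenting cells, and 12 of 13 had no peak in any list. Of all 617 protein-coding genes of the first 60 Mb, 170 had none. Whether short reads can be placed at the class II genes was not tested, so a missing peak need not mean closed chromatin. The class II gene with a peak was HLA-DMA, with 2.5, 2.53 and 2.21.

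Transcription and signalling regulators were listed on both sides of 60 Mb, where 67.9% and 78.2% of all protein-coding genes had a start-site peak in NTG. Of 20 regulators in the first 60 Mb, 17, 17 and 15 had a start-site peak in NTG, siINO80#1 and siINO80#2. The cell cycle factor gene E2F3 had 8.79, 7.54 and 6.51, and NFYA, a subunit of the CCAAT-binding factor, 8.41, 6.11 and 5.46. Between lists 4 (20%) differed, against 16% of all protein-coding genes of that side. Their peaks were weak: FOXC1 (2.65 in siINO80#1 and 2.26 in siINO80#2), TFAP2A (2.11 in NTG and 2.24 in siINO80#1), VEGFA, the vascular growth factor gene (2.74 in NTG and 2.35 in siINO80#1), and RUNX2 (2.65 in NTG). Of 20 in the rest, 19 had a peak in each list, and 2 (10%) differed between lists, against 10.7% of all protein-coding genes there. The kinase genes FYN (11.7, 12.0 and 8.63) and MAP3K7 (10.9, 8.76 and 10.0) were strongest in NTG. The gap junction gene GJA1 had a peak in siINO80#2 alone (2.54), and MYB in NTG (2.94) and siINO80#1 (3.66).

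Liver genes were listed on both sides too. Of 15 in the first 60 Mb, 9, 9 and 8 had a start-site peak, and 6 had it in all 3 lists. That is 60% in NTG and 40% in all 3 lists, against 67.9% and 56.4% of all protein-coding genes of that side. Between lists 5 (33.3%) differed, against 16%. GLO1, which detoxifies methylglyoxal, had 12.7, 10.6 and 8.12, and MMUT, the methylmalonyl-CoA mutase gene, 11.6, 14.4 and 13.1. The 5 that differed were the phosphate transporter family genes SLC17A1 (2.89 in NTG), SLC17A2 (2.34 in siINO80#1 and 2.38 in siINO80#2) and SLC17A3 (3.01 in siINO80#1), the complement gene C2 (2.87 in NTG and 2.10 in siINO80#2) and GNMT, a glycine methyltransferase gene (3.57 in NTG and 3.21 in siINO80#1). Of 15 in the rest, 11, 11 and 10 had a peak. That is 73.3% in NTG, against 78.2% of all protein-coding genes there, and 3 (20%) differed between lists, against 10.7%. SOD2, the mitochondrial superoxide dismutase gene, and its neighbour ACAT2 shared the strongest, with 10.2, 10.1 and 7.29. The urea cycle gene ARG1 had a peak in NTG (3.93) and siINO80#2 (3.42), VNN1 in siINO80#1 alone (7.03), and PLG, the plasminogen gene, in NTG (4.64) and siINO80#1 (3.39).

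Genes known from other tissues were of different kinds on the sides of 60 Mb, so the sides are not compared. Of 16 olfactory receptor genes of the short arm, 14 had no start-site peak in any list, against 170 of all 617 protein-coding genes of the first 60 Mb. The exceptions were OR2J3 (4.69 in NTG and 4.06 in siINO80#1) and OR10C1 (2.30 in siINO80#1). Of 16 genes of the long arm known from retina, brain or olfactory epithelium, 7, 10 and 5 had a peak, against 337, 340 and 319 of all 431 protein-coding genes of that side. EYS, a photoreceptor gene, had 9.35, 8.82 and 9.25, and the serotonin receptor gene HTR1E 9.10, 6.70 and 6.40. Between lists 5 (31.3%) differed, against 10.7% of all protein-coding genes of that side. They were EPHA7 (3.99 in NTG and 2.92 in siINO80#1) and the trace amine receptor genes TAAR5 (2.54 in NTG and 2.33 in siINO80#1), TAAR8 (2.32), TAAR6 (2.76) and TAAR2 (2.76), the last 3 in siINO80#1 alone. A start-site peak does not measure transcription.

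**Figure D5:**
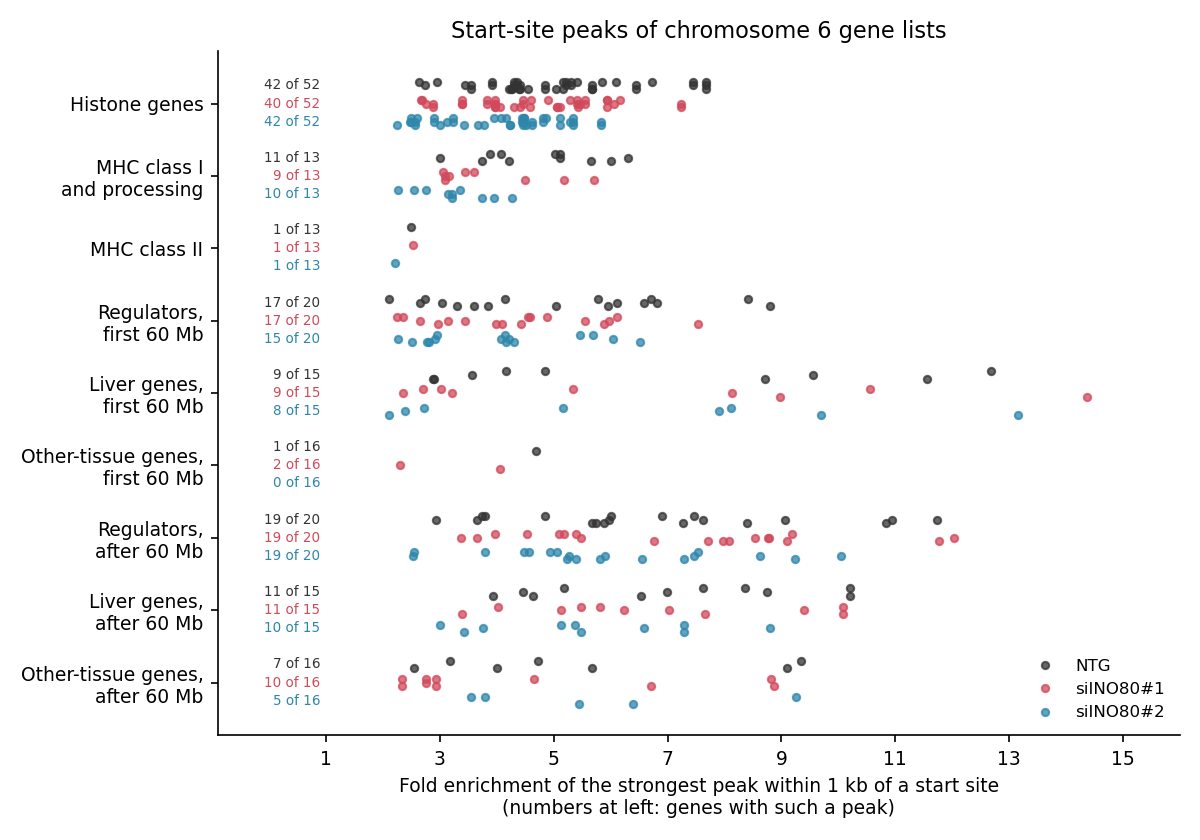
Fold enrichment (linear axis) of the strongest peak within 1 kb of a start site for each gene of 9 lists of chromosome 6 genes; points are genes, colours are peak lists, and the numbers at left count the genes with such a peak. Most histone genes (42 of 52 in NTG) and regulators have a peak, while 12 of 13 MHC class II genes have no peak.

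The leading regions held by some lists and not by others had lower fold enrichment than the leading shared ones. After the KIF13A site (fold enrichment 5.66), the next region of NTG alone in the first 60 Mb was an intergenic site 4759 bp from RN7SKP256 (5.14). In the rest, the site near RFPL4B had 8.46 in NTG, followed by an intron of PREP, a prolyl endopeptidase gene, with 7.06. Among regions of both siINO80 lists, the LNC-LBCS site had 6.85 in siINO80#1 and 6.45 in siINO80#2, and an intergenic site 39860 bp from TINAG had 8.55 and 5.47. In the rest, the EYS intron site had 9.32 and 7.67, and a site in an intron of ENSG00000289911, 11577 bp from the pseudogene ENSG00000218048 had 7.59 and 6.29. The AP-1 sites shown above had 6.12 and 4.48 at HULC and 7.54 and 6.16 at LINC02542.

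The leading regions of siINO80#1 alone were an intron of MCUR1, a regulator of mitochondrial calcium uptake, with 6.70, and an intron of ENSG00000225096 with 5.69, both with AP-1 letters. In the rest they were introns of LINC01611, 2282 bp from the pseudogene SMARCE1P2, and of GRIK2, a glutamate receptor gene, each with 6.01. Among those of siINO80#2 alone were an intergenic site 186653 bp from OFCC1 (6.55), an intron of CLIC5 nearest to RNU6-754P (4.79) and, in the rest, an intron of EYS nearest to AL109922.1 (5.68). None of these sites had a peak in a second list, and with 1 list per group none has a replicate check.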

How the data were processed

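ATAC-seq was measured in 9 samples, and the authors deposited 1 narrowPeak list per siRNA. The submitters' processing notes name Trim Galore 0.4.1, Bowtie2, SAMtools, MACS2, deepTools 2.2.4 and hg19. Settings, the transposase offset and the pooling of replicates are not given in the sources used here. In the deposited lists each peak has a fold enrichment (ratio of summit reads to local background), −log10 p and −log10 q values (lowest −log10 q 1.30) and a score. Intervals listed for several summits were collapsed to the strongest.

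Pileup and local background were recovered from the deposited fold enrichment and −log10 p by the MACS2 formulas (largest error 0.00121 in −log10 p), a step tested on simulated data. Peaks overlapped if they shared 1 bp. Start sites were those of GENCODE 44 lifted to GRCh37. Density was taken per Mb outside assembly gaps. Python 3.11.15, pandas 2.3.3, scipy 1.17.1 and pysam 0.24.0 were used. No p-values were computed, because each group has 1 list.

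The members, gene lists and motifs were chosen with earlier results of these data known. Named were, per side and class, the 2 regions with the highest minimal percentile of fold enrichment, and of each gene list those that differed between lists (at most 6) and the 2 strongest in NTG. Alternatives were other thresholds, equal list sizes, left-out intervals, merging, overlap, start-site and motif windows. Some items that this rule names are not reported here. Motif shares of the chromosomes left out of the reference were added after the data were seen.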

Additional observations from a re-analysis of the deposited data

Results flagged for a closer look

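Values of siINO80#1 and siINO80#2 lay on opposite sides of NTG in 5 measures of chromosome 6. Each group has 1 list, so none of these differences was tested. In the first 60 Mb, peaks per Mb were 1.38 higher in siINO80#1 than in NTG, and the difference was -8.18 in siINO80#2. In the rest of the chromosome the differences were 0.0184 and -10.6. The ratios of siINO80#1 to NTG in peak number were 1.03 (0.977 to 1.09) and 1.00 (0.961 to 1.04), and both intervals include no change. The share of peaks at start sites differed from NTG by -0.843 percentage points in siINO80#1 and 2.15 in siINO80#2 in the first 60 Mb, and by -0.0922 and 2.39 in the rest. The median local background of the first 60 Mb, in multiples of the genome background, differed by -0.0218 in siINO80#1 and 0.00522 in siINO80#2.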

How the results depend on the processing

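Of 102 values under alternatives, 60 stayed within the interval of the reported value, 37 lay outside it and 5 turned the direction of a difference whose interval had excluded no difference. Values below are for NTG, siINO80#1 and siINO80#2 in that order, or for siINO80#1 and siINO80#2 in matching.

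Density of the first 60 Mb over the rest was 1.02, 1.05 and 1.10. It was 1.16 and 1.18 (NTG, siINO80#1) with −log10 q of at least 5, 1.36, 1.40 and 1.41 where only summits with 5-fold more reads than the genome background were kept (the pileup threshold), and 0.918, 0.956 and 0.992 for distal peaks. With the dense stretches set against 70-110 Mb, chosen after seeing the data, it was 2.32, 2.31 and 2.49. Matching, 7.58 and 6.88 points higher in the first 60 Mb, was 1.2 and -0.556 with −log10 q of at least 5, 0.455 and 0.665 with the pileup threshold, 4.57 and 3.75 without 25-34 Mb, 5.03 for distal peaks (siINO80#1), 9.38 with lists of equal size (siINO80#2), and -11.0 and -8.78 for the dense stretches minus 70-110 Mb. The share in all 3 lists, 4.37 points higher, was 0.386 with −log10 q of at least 5, -0.00971 with the pileup threshold, 1.54 without 25-34 Mb and 2.2 for distal regions.

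The start-site share difference was 10.7 points in NTG with −log10 q of at least 5, and 2.92, 2.69 and 2.47 without 25-34 Mb. The local background ratio was 1.23 and 1.27 (NTG, siINO80#1) with −log10 q of at least 5, 1.19 and 1.17 (siINO80#1, siINO80#2) without 25-34 Mb, and 1.13, 1.19 and 1.15 for distal peaks. The AP-1 difference was 33.2 and 28.1 points (first 60 Mb, rest) with −log10 q of at least 5, 34.7 and 31.2 with the pileup threshold, and 13.7 and 14 in a 100 bp window. The cause was not tested in any of these.

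No paired analysis was possible because each group has 1 list for all of its replicates; leaving out a replicate could not be run for the same reason. Counting intervals do not cover the spread between cultures, read depth per sample is unknown, and weak peaks, in which chromosome 6 is rich, lie nearest the calling threshold.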
